A study of Mus musculus with 21 samples.

Results

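The 45 nuclear genes named Nduf followed by a, ab, af, b, c, s or v and a number were followed through RNA sequencing of primary mouse brain microglia. They encode subunits and assembly factors of complex I, the NADH dehydrogenase of the mitochondrial respiratory chain. The rule used the gene symbol and no measured value, from 54532 symbols in each of 2 deposited tables, and all 45 were in both. The 6 other symbols beginning with Nduf, copies and paralogs among them, lay outside the rule. The study asked how deletion of Trem1, a myeloid receptor that amplifies inflammatory signalling, alters microglial expression with age and in 5XFAD mice, which carry human familial Alzheimer transgenes under the Thy1 promoter of neurons. The aging data held aged mice labelled Trem1-/-, aged wild-type mice, young mice labelled Trem1-/- and young wild-type mice. The 5XFAD data held adult mice labelled 5XFADXTREM1+/- (5XFAD with 1 Trem1 allele, by its label), 5XFAD mice and wild-type mice. Each group had 3 libraries, ages are given as words without months, and no treatment is named.

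Complex I takes electrons from NADH to ubiquinone and pumps protons across the inner mitochondrial membrane. Its catalytic core is split between nuclear genes, which supply the peripheral arm that reaches into the matrix, and mitochondrial genes, which supply the proton-pumping membrane arm. Many small accessory subunits surround that core, and assembly factors help build the complex without staying in it. In microglia, the resident macrophages of the brain, the balance between respiration and glycolysis is known to shift with activation.

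The depth per library, as reads assigned to genes, was 8600878 to 19411434 for aging and 9264999 to 18698707 for 5XFAD. The 10 microglial markers were abundant everywhere, with summed normalized counts of at least 314080 in the aging data and 338062 in the 5XFAD data. Whether replicates are different animals is not in the labels, and p-values therefore measure only the spread between these samples. Trem1 counts were not absent in libraries labelled Trem1-/-. Aged libraries with that label had 124, 124 and 244 normalized counts, against 269, 188 and 237 in aged wild type. That log2 difference was -0.55 ± 0.45 (SE; limma adjusted p = 0.743). In young libraries Trem1 went against its label. It had 89.4, 99.8 and 89.5 with the Trem1-/- label, against 25.2, 7.65 and 8.74 in young wild type. In the 5XFAD data it had 25.1, 18.1 and 38.3 in 5XFADXTREM1+/-, 13.7, 31.99 and 36.8 in 5XFAD and 62.7, 0 and 30.2 in adult wild type. Which part of the gene was deleted is not stated in the labels, so the count is no full check, and an exchange of labels cannot be told apart from such a deletion here. The 12 neutrophil markers summed to 38349 to 77046 normalized counts in young libraries labelled Trem1-/- and 17454 to 26136 in young wild type. The 10 monocyte markers summed to 16739 to 38090 and 2750 to 5523 there. In aged libraries the neutrophil sums were 68799 to 157696 with that label and 82016 to 149121 in wild type. The monocyte sums there were 20078 to 25136 and 20254 to 36283. The part of these cells in the Trem1 counts was not tested. The labels are quoted as given. With labels exchanged within an age, the directions between Trem1-/- and wild type at that age would turn round. The comparisons across ages and the interaction would then compare other groups than those named. In these bulk samples, fewer cells of a type and less RNA per cell cannot be told apart.

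By role, the 45 members were 7 core subunits, 10 accessory subunits of the matrix arm, 19 accessory subunits of the membrane arm, 8 assembly factors and Ndufa4, which was first assigned to complex I and is now placed in complex IV. They lay on 17 chromosomes. On GRCm38 the protein-coding genes described most below are Ndufa1 at chrX:37187588-37191163 (minus strand, principal transcript of 419 bases), Ndufa13 at chr8:69894180-69902558 (minus strand, principal transcript of 1251 bases), Ndufb11 at chrX:20615326-20617619 (minus strand, principal transcript of 908 bases) and Ndufa11 at chr17:56717767-56722141 (plus strand, principal transcript of 545 bases). All 45 had a mean of at least 10 normalized counts in both tables, the minimum for testing. Means ran from 55.1 to 1424 normalized counts in the aging data and from 77.1 to 1325 in the 5XFAD data. Per kilobase of the principal transcript, the highest levels in both tables belonged to Ndufb10 and Ndufa6, accessory subunits, and to Ndufs7, a core subunit beside the ubiquinone site. In the 5XFAD data they averaged 1033, 946 and 842 normalized counts per kilobase over all libraries. The lowest in both tables were assembly factors. Ndufaf4, which works with Ndufaf3, Ndufaf1, part of an early membrane-arm assembly module, and Ndufaf5, which hydroxylates Ndufs7, averaged 57.9, 65.7 and 66.8 normalized counts per kilobase in the 5XFAD data. The top and bottom levels per kilobase were 24.8-fold apart in the aging data and 17.8-fold apart in the 5XFAD data. In the 5XFAD data the median level per kilobase was 429 for core subunits, 350 for matrix-arm accessory subunits, 364 for membrane-arm accessory subunits and 88.5 for assembly factors. The order of levels per kilobase was nearly the same in both tables (Spearman's rho 0.98 across 45 genes, which share library preparation and gene length). No pair of neighbours in that order, of 44 in each table, had ranges that did not overlap across libraries.

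Depth limited the lowest members. Ndufaf5 rested on 17 to 107 reads per library in the aging data and on 30 to 119 in the 5XFAD data. Ndufb6, a membrane-arm accessory subunit, had 1 read in 5XFAD replicate 2, or 1.45 normalized counts, against 95.8 and 58.8 in the other 5XFAD libraries, and gave the widest error of all members. Its log2 difference between 5XFAD and adult wild type was -1.73 ± 1.23 (SE) with an adjusted p of 0.559 by limma. Among the transcripts of the reference annotation, over 20% of 50-base stretches were shared with another gene for 4 members. They were Ndufaf2 (64.1%), Ndufb6 (31.6%), Ndufa13 (28.5%) and Ndufs5 (21.7%). In the first 3 of these, exons also overlap a gene on the opposite strand, and the strandedness of the counting is not given in the sources used here, so their counts are uncertain to that extent.

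In 5XFAD microglia most members lay above adult wild type, but none passed the adjusted threshold by limma. Of 45 members, 36 had a positive log2 difference on the log2(normalized count + 1) scale, which understates changes of low genes, with a median of 0.32 against 0.0011 over all 17025 genes tested. By limma 0 members had an adjusted p under 0.05, where 1.98% of all genes tested did. At an unadjusted p under 0.05 there were 11 members, all higher in 5XFAD, beside 15.1% of all genes tested. On the recovered reads edgeR called 0 members among 213 genes in all, and DESeq2 called 2 among 778. Averaged over the 45 members, the level was 8.36, 8.06 and 7.95 on that log2 scale in the 5XFAD libraries, against 7.84, 7.67 and 7.91 in adult wild type. All 3 5XFAD libraries lay above all 3 wild-type libraries, the closest pair being 7.95 and 7.91. Without 5XFAD replicate 1 the median difference of the members was 0.17, and without adult wild-type replicate 2 it was 0.20.

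**Figure D1:**
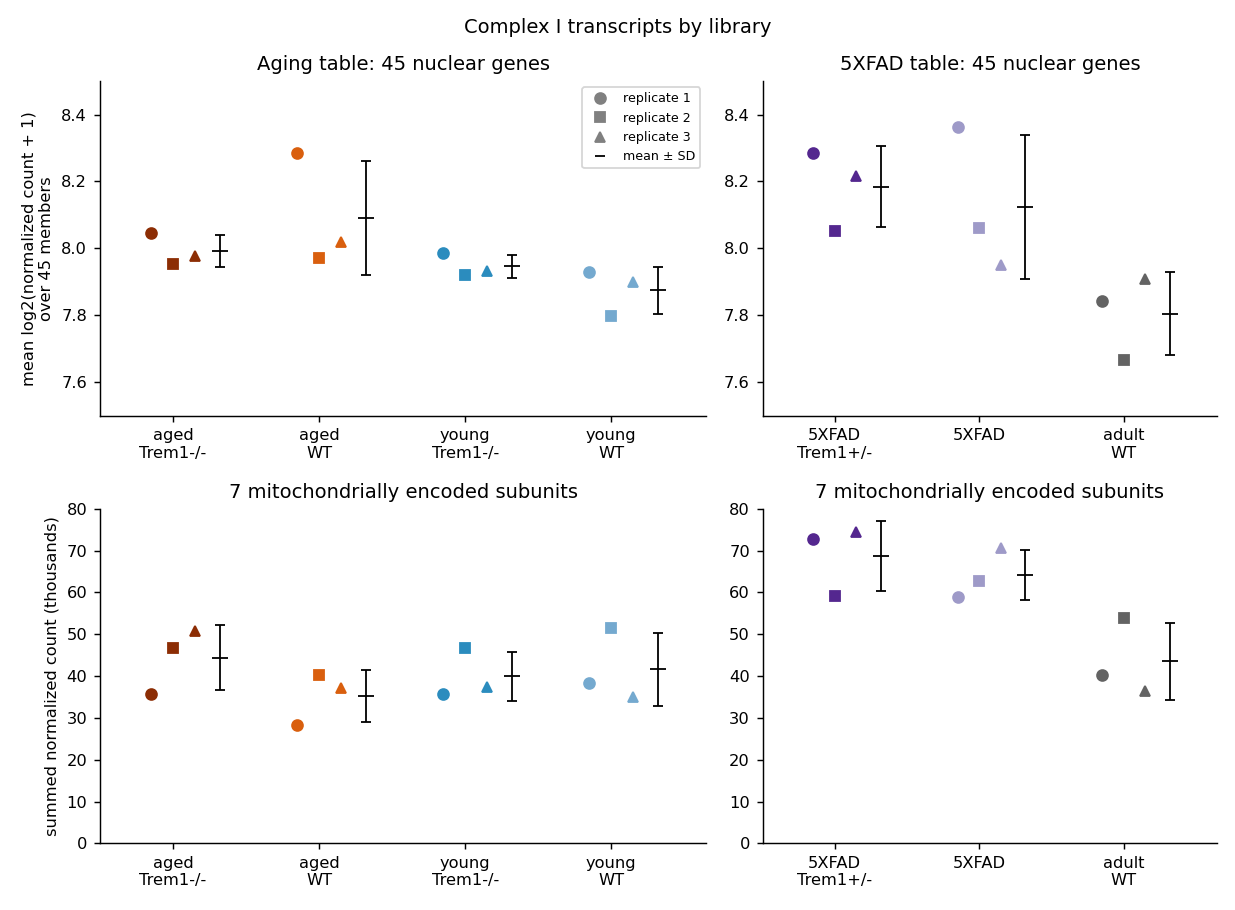
Upper panels plot the mean log2(normalized count + 1) over the 45 nuclear members in each library, and lower panels the summed normalized count of the 7 mitochondrially encoded subunits in units of 1000; symbols mark replicates and bars the mean ± SD of 3 libraries. Libraries of 5XFAD mice with and without the Trem1+/- label lie above adult wild type in both measures, and aged wild-type replicate 1 is the highest aging library for nuclear members at 8.28.

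All 7 core subunits were above zero in this comparison, with a median log2 difference of 0.32. Among membrane-arm accessory subunits 15 of 19 were above zero (median 0.39), among matrix-arm accessory subunits 8 of 10 (median 0.19) and among assembly factors 5 of 8 (median 0.10). Ranges of the 3 libraries did not overlap for 10 members higher in 5XFAD (22.2% of members, against 9.32% of all genes tested) and for 1 lower, Ndufaf7, an assembly factor (2.22%, against 8.01%). Among them were Ndufa1, Ndufa2, Ndufa6, Ndufa13, Ndufb8, Ndufb11 and Ndufs5.

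The members with the smallest p between 5XFAD and adult wild type were Ndufa13, Ndufb11 and Ndufs5, all accessory subunits of the membrane arm. Ndufa13, also known as GRIM-19 for its reported part in cell death and STAT3 signalling, had 1236, 958 and 885 normalized counts in 5XFAD and 548, 674 and 680 in adult wild type. The lowest 5XFAD library lay well above the highest wild-type library, and the log2 difference was 0.69 ± 0.19 (SE; limma adjusted p = 0.0693). Ndufb11, an X-linked subunit needed for assembly in human cells, had 272, 648 and 376 normalized counts in 5XFAD and 230, 154 and 167 in adult wild type. The 5XFAD libraries were higher and widely spread, with a log2 difference of 1.16 ± 0.32 (SE; limma adjusted p = 0.0731). Ndufs5, which faces the intermembrane space, had 620, 436 and 361 normalized counts in 5XFAD and 234, 236 and 329 in adult wild type. Again the groups were apart, by 0.81 ± 0.25 on the log2 scale (SE; limma adjusted p = 0.117).

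The authors' deposited table compared the same 2 groups, with a positive log2 fold change meaning higher in wild type. Groups and sign were identified from its values. Of 20098 genes with an adjusted p in the authors' deposited table, 852 were under 0.05 (4.24%), and 4 of the 45 members were among them, all higher in 5XFAD. In the authors' deposited table the log2 fold change of wild type over 5XFAD was -0.70 for Ndufa13 (adjusted p = 0.0245), -1.23 for Ndufb11 (0.0169), -0.83 for Ndufs5 (0.0482) and -0.95 for Ndufa2 (0.0372), a matrix-arm accessory subunit. The deposited values come from DESeq2 and rest on the same libraries.

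**Figure D2:**
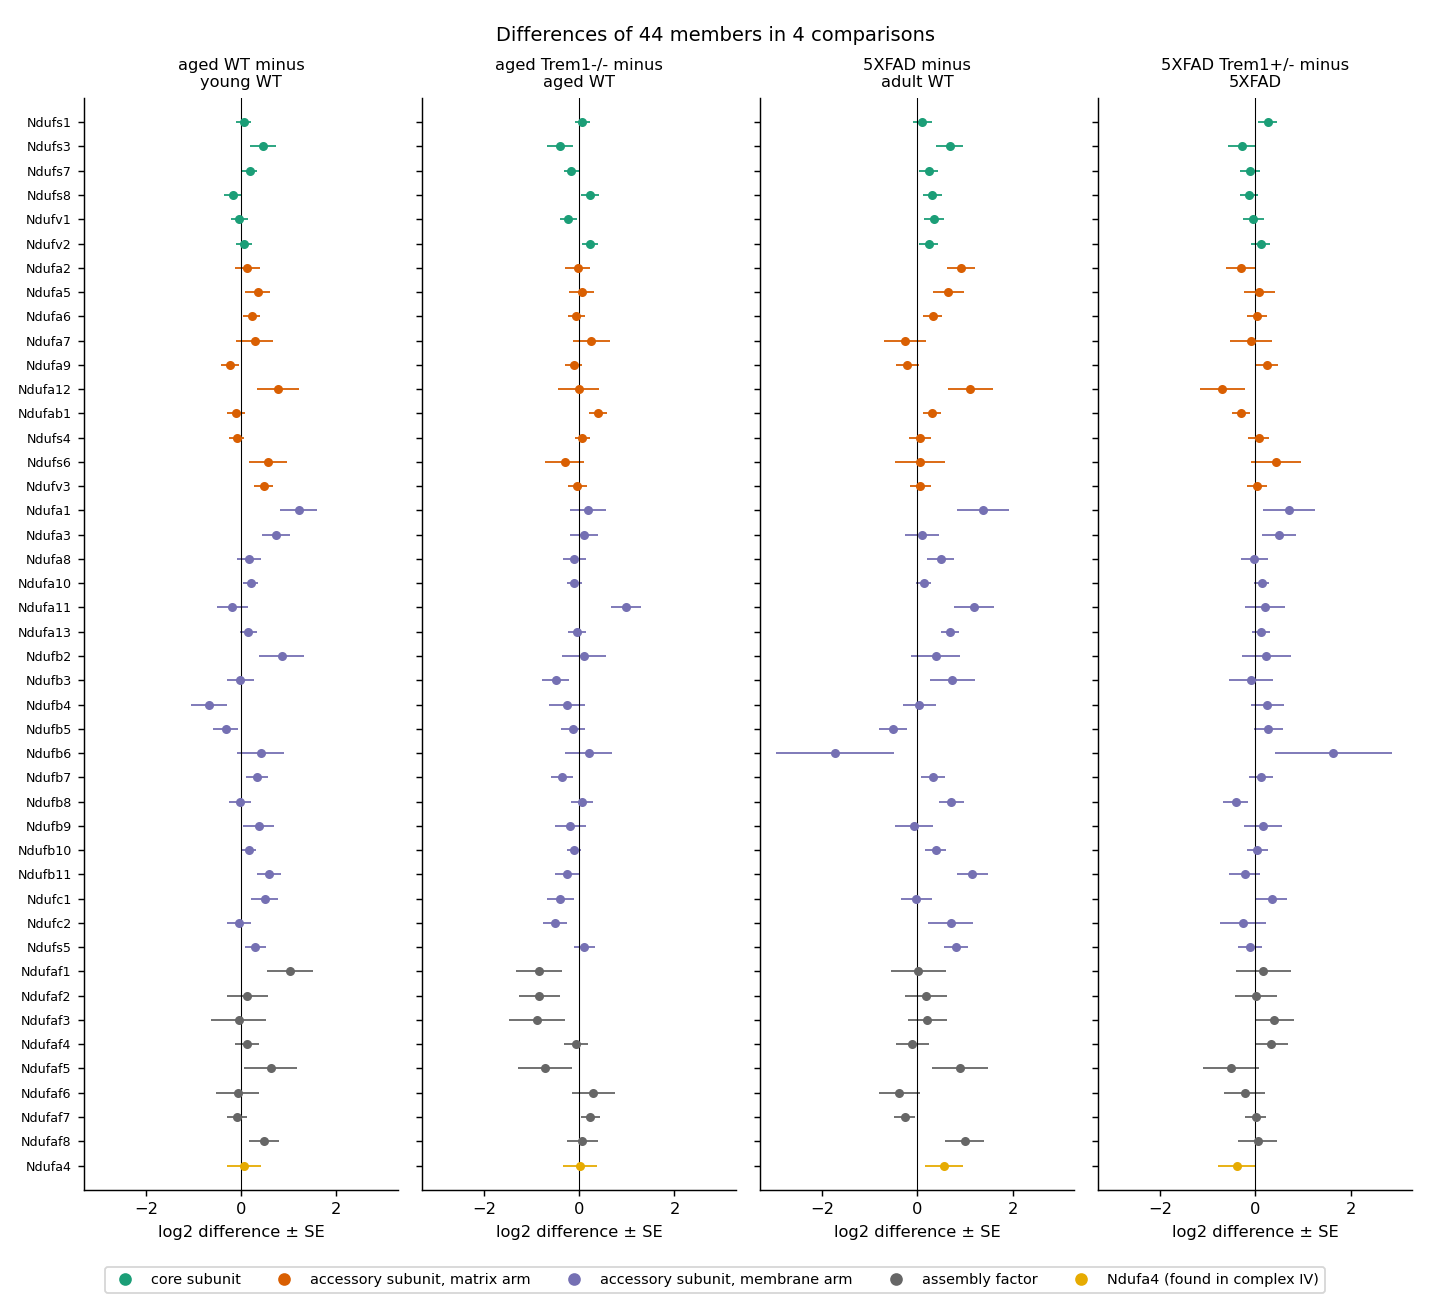
Points give the log2 difference of 44 of the 45 members on the log2(normalized count + 1) scale in 4 comparisons, with the SE of the fit as horizontal bars and colours for the role of the subunit; Ndufb6, at -1.73 in 5XFAD minus adult wild type, is drawn. In the panel of 5XFAD minus adult wild type most points lie right of zero, whereas the panel of 5XFADXTREM1+/- minus 5XFAD is centred near zero.

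Microglia labelled 5XFADXTREM1+/- also lay above adult wild type, the same control libraries as above. Of 45 members 40 had a positive log2 difference, with a median of 0.36 against 0.018 over all genes tested. By limma 2 members passed the threshold, both higher, where 2.78% of all genes tested passed it and 2.04% were higher. At an unadjusted p under 0.05 there were 8 members, all higher, beside 15.9% of all genes tested. Ndufa13 had 1337, 891 and 1119 normalized counts in 5XFADXTREM1+/- libraries and 548, 674 and 680 in adult wild type. It rose by a log2 difference of 0.80 ± 0.19 (SE; limma adjusted p = 0.0263). Ndufa1, an X-linked membrane-arm subunit required for assembly of the complex in hamster and human cells, had 190, 165 and 228 normalized counts in 5XFADXTREM1+/- libraries and 73.7, 15.2 and 76.9 in adult wild type. It rose by a log2 difference of 2.09 ± 0.54 (SE; limma adjusted p = 0.0451), the largest of the 45 members. No wild-type library reached the 5XFADXTREM1+/- range for either gene. Both calls were lost when certain single libraries were left out. Without adult wild-type replicate 2, where Ndufa1 was lowest, 0 members passed, and the log2 difference of Ndufa1 was 1.34. Also without 5XFADXTREM1+/- replicate 1 or replicate 3, 0 members passed. Ndufa11, a membrane-arm subunit at the contact with complex III in respiratory supercomplexes, had 327, 198 and 240 normalized counts in 5XFADXTREM1+/-, 372, 207 and 133 in 5XFAD and 78.1, 67.96 and 161 in adult wild type. Its 5XFADXTREM1+/- libraries were all above wild type, at a log2 difference of 1.39 ± 0.41 (SE; limma adjusted p = 0.0817), and 1 of the 5XFAD libraries lay inside the wild-type range. The ranges of 15 members lay wholly above adult wild type (33.3% of members, against 12.9% of all genes tested) and those of 0 members wholly below (against 12.6%).

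**Figure D3:**
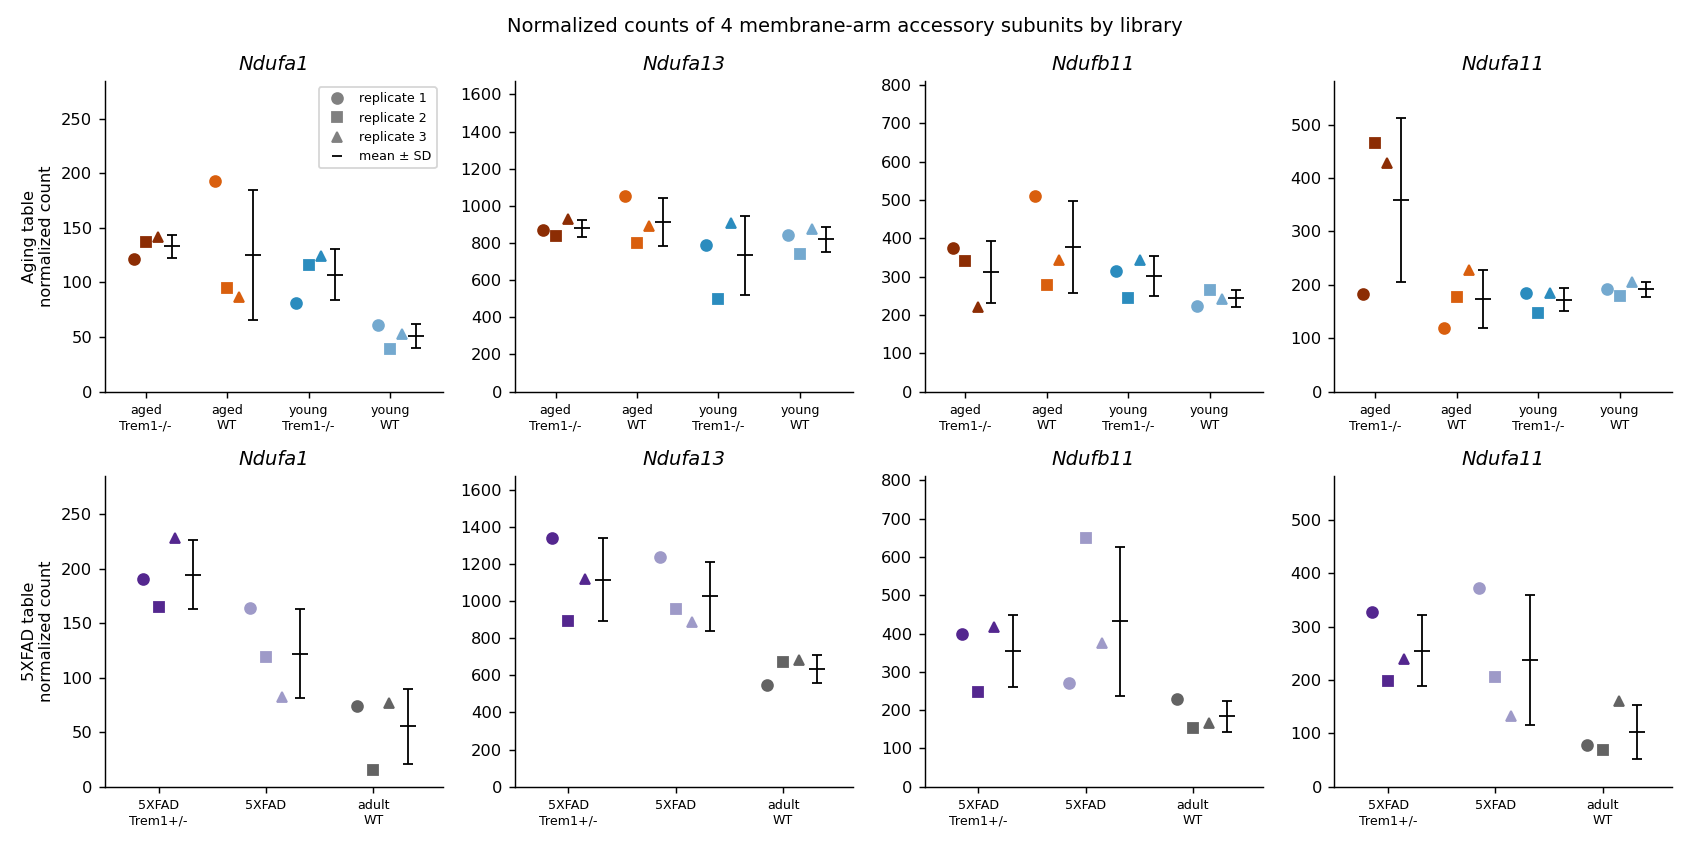
Normalized counts of Ndufa1, Ndufa13, Ndufb11 and Ndufa11 in each library of the aging data (upper row) and the 5XFAD data (lower row), with symbols for replicates and bars for the mean ± SD of 3 libraries. Ndufa1 averaged 194 in 5XFADXTREM1+/-, 122 in 5XFAD and 55.3 in adult wild type, and Ndufa11 stands high in aged Trem1-/- replicates 2 and 3.

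Promoter letters were read for the 40 members found in RefSeq's promoter windows (GRCm38.p6, 250 bases before to 50 after the start, either strand searched), because respiratory chain genes are known to share sites for a few factors. The NRF1 motif (GCGCA, any base, then GCGC) stood in 9 of 40 member windows (22.5%) and in 5.19% of the windows of 27025 genes. The letters AANATGGCG, a YY1 core, stood in 8 of 40 (20%) and in 2.76% of all genes, and the ETS letters CCGGAAG in 6 of 40 (15%) and 9.93%. CCAAT stood in 35% of member windows and 41.1% of all, and TATAAA in 10% and 15.7%. The median GC share was 59.2% in member windows and 52.8% in all. For Ndufa1, Ndufb11 and Ndufa11, only the 250 bases before the start are shown, without the 50 after it. These genes are the 3 members with the largest positive log2 differences between 5XFAD and adult wild type. NRF1 or YY1 letters are in capitals on the gene's strand, 5′ to 3′. Ndufa1 lies at chrX:37191239-37191488 (minus strand), Ndufb11 at chrX:20617620-20617869 (minus strand) and Ndufa11 at chr17:56717512-56717761 (plus strand).
Ndufa1: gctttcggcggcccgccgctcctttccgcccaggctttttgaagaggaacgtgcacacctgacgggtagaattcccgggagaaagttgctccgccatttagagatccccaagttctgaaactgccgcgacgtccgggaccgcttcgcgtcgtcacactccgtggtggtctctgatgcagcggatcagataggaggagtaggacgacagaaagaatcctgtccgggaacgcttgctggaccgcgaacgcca
Ndufb11: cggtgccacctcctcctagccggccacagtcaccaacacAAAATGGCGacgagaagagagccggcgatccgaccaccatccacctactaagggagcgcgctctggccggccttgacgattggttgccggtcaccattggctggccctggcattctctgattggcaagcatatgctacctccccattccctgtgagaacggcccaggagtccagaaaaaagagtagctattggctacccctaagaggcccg
Ndufa11: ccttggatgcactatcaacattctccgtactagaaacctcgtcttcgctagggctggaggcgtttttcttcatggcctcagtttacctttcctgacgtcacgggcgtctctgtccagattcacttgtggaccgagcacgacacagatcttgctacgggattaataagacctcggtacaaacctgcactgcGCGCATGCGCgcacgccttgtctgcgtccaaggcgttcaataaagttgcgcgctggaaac
Ndufa11 held the NRF1 letters, Ndufb11 the YY1 letters and Ndufa1 neither, and Ndufs5 held the NRF1 letters in its window. A match is only a description of these letters.

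Within 5XFAD mice, no member passed the threshold between libraries with and without the Trem1+/- label. Of 45 members 27 were above zero, with a median log2 difference of 0.043 against 0.019 over all genes tested, and it was -0.044 without 5XFADXTREM1+/- replicate 1 and -0.022 without 5XFAD replicate 3. By limma 0 members and 0.0% of all genes tested had an adjusted p under 0.05, 0 members had an unadjusted p under 0.05, and edgeR and DESeq2 called 0 members. The smallest p belonged to Ndufab1, the mitochondrial acyl carrier protein, to Ndufb8 and to Ndufa12. Ndufab1 had 597, 617 and 575 normalized counts in 5XFADXTREM1+/- and 900, 619 and 726 in 5XFAD. Its ranges lay just apart, with a log2 difference of -0.31 ± 0.19 (SE; limma adjusted p = 0.931). The log2 difference was -0.41 ± 0.26 (SE; limma adjusted p = 0.931) for Ndufb8 and -0.69 ± 0.47 (SE; limma adjusted p = 0.931) for Ndufa12, a matrix-arm subunit whose place Ndufaf2 holds during assembly. Ndufa1 was higher in all 3 5XFADXTREM1+/- libraries than in all 3 5XFAD libraries, which had 164, 119 and 82.5 normalized counts, and that log2 difference was 0.71 ± 0.54 (SE; limma adjusted p = 0.933). It was the 1 member with ranges wholly above (2.22%, against 5.24% of all genes tested), and Ndufab1 and Ndufb8 were the 2 wholly below (4.44%, against 6.61%).

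Transcript length moved with these differences. Of the 45 members, 26 have a principal transcript under 1000 bases. In 5XFAD against adult wild type, the median log2 difference was 0.39 for those 26 members and 0.13 for the 19 longer ones. The same contrast held among all protein-coding genes tested, with a median of 0.39 for the 821 under 1000 bases and 0.01 for longer ones. In 5XFADXTREM1+/- against adult wild type it was 0.44 for the 26 short members and 0.27 for the 19 longer ones, beside 0.44 and 0.06 over protein-coding genes. Spearman's rho of log2 difference with transcript length over the 45 members was -0.25 in the first comparison and -0.36 in the second, against -0.06 and -0.12 over protein-coding genes measured in the same libraries. When the length trend of each library was removed, an alternative chosen after seeing the data, the median of the members was 0.092 for 5XFAD and 0.079 for 5XFADXTREM1+/- against adult wild type, and 0 members passed in either comparison. With that trend removed, 25 of 45 members were above zero in 5XFAD and 29 of 45 in 5XFADXTREM1+/-.

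**Figure D4:**
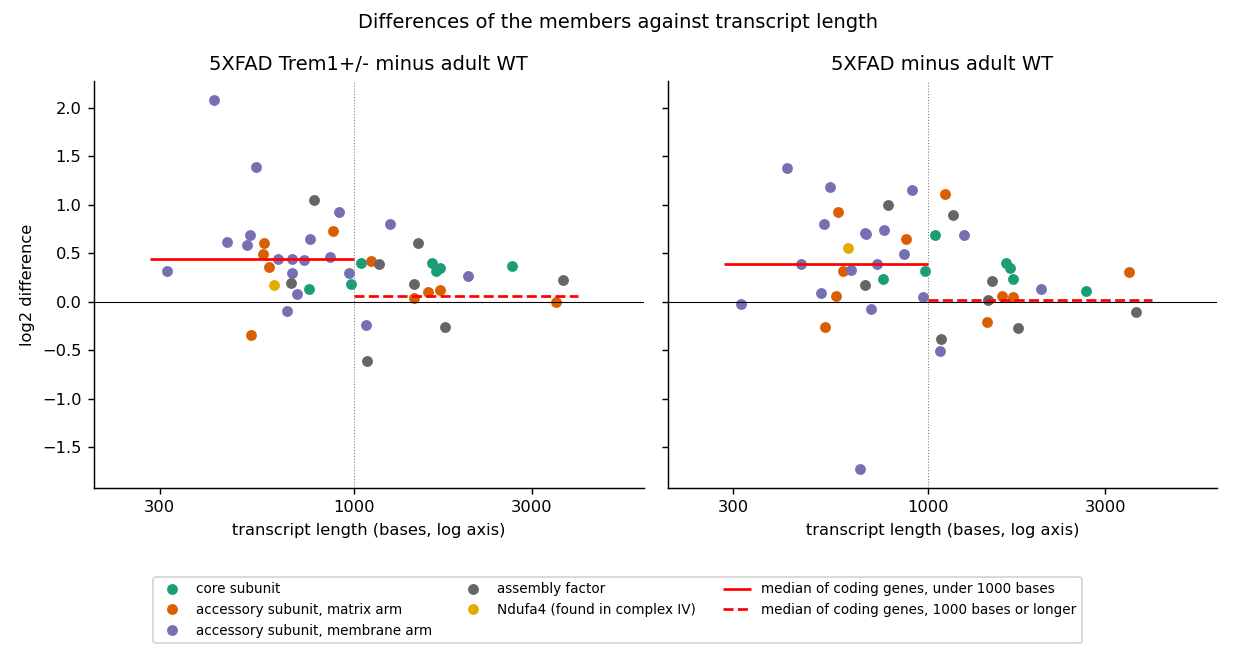
Log2 difference of each member on the log2(normalized count + 1) scale against the length of its principal transcript in bases (log axis), with red lines at the median of all protein-coding genes tested on either side of 1000 bases. In both panels the short members scatter around the solid line, at 0.44 for 5XFADXTREM1+/- and 0.39 for 5XFAD minus adult wild type.

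Markers of choroid plexus and ependyma, astrocytes and neurons moved with both 5XFAD groups as well. The microglial sum lay wholly below adult wild type in 5XFAD but overlapped it in 5XFADXTREM1+/-. The 10 microglial markers summed to 400632 to 450403 normalized counts in 5XFADXTREM1+/-, 338062 to 379931 in 5XFAD and 415576 to 462305 in adult wild type. Of them Fcrls and Olfml3 were called higher and 0 lower in 5XFADXTREM1+/- against adult wild type. Cx3cr1 and Siglech were called lower and Fcrls higher in 5XFAD against adult wild type. Of 15 immediate early and handling stress genes tested, Egr1 and Ier2 were called higher in that comparison. The summed normalized counts of 6 choroid plexus and ependymal markers ran from 18243 to 103245 in 5XFADXTREM1+/-, from 14962 to 81767 in 5XFAD and from 2271 to 6568 in adult wild type. For 6 astrocyte markers they ran from 1674 to 2878 in 5XFADXTREM1+/-, from 2155 to 3893 in 5XFAD and from 267 to 897 in adult wild type. For 8 neuronal markers they ran from 146 to 222 in 5XFADXTREM1+/-, from 253 to 563 in 5XFAD and from 90.2 to 129 in adult wild type. The part of these cells in the member values was not tested beyond leaving out replicate 1 of every group, an alternative also chosen after seeing the data, where choroid plexus markers peaked in both 5XFAD groups. Without it the median difference of the members was 0.25 in 5XFAD and 0.32 in 5XFADXTREM1+/- against adult wild type, and 0 members passed in either. The libraries left in both 5XFAD groups still had choroid plexus and ependymal sums of at least 14962, against at most 6568 in adult wild type. Leaving out replicate 1 therefore did not remove the difference in these markers.

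The 7 complex I subunits encoded in mitochondrial DNA, the membrane-arm core, were above adult wild type too. Their summed normalized count was 72775, 59083 and 74375 in 5XFADXTREM1+/-, 58910, 62728 and 70652 in 5XFAD, and 40266, 53988 and 36462 in adult wild type. Every 5XFAD library of either kind was above every wild-type library. In 5XFAD 7 of 7 were above zero (median log2 difference 0.57) and 2 rose, mt-Nd1 by 0.57 ± 0.12 (SE; limma adjusted p = 0.0152) and mt-Nd5 by 0.65 ± 0.14 (SE; limma adjusted p = 0.035). In 5XFADXTREM1+/- 7 of 7 were above zero (median 0.63) and mt-Nd1, mt-Nd2, mt-Nd5 and mt-Nd6 rose. Of all genes tested, 1.98% were called in 5XFAD and 2.78% in 5XFADXTREM1+/- against adult wild type. The other respiratory chain complexes and ATP synthase, complex V, held several called genes in 5XFAD against adult wild type. These were 1 of 4 complex II genes, Sdhc, 2 of 9 complex III genes, Uqcrq and Uqcr11, 3 of 10 complex IV genes, Cox4i1, Cox5b and Cox6a1, and 1 of 15 complex V genes, Atp5b, and none of these lists had a called fall. Their median log2 differences were 0.11, 0.76, 0.82 and 0.44. Of 10 other measured assembly factors, named outside the Nduf series, 0 were called and 5 were above zero. Of 12 regulators of mitochondrial biogenesis 0 were called and 8 were above zero. In aged against young wild type, Cox5a of complex IV and Atp5a1 and Atp5b of complex V were called higher, beside 8.67% of all genes tested.

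With age, no member passed the threshold in wild type. In aged against young wild type 30 of 45 members were above zero, with a median log2 difference of 0.16 against -0.0067 over all 16086 genes tested. By limma 0 members passed, where 8.67% of all genes tested did, 5 members had an unadjusted p under 0.05, all higher, beside 21.8% of all genes tested, and edgeR and DESeq2 each called 1, Ndufa1. Ndufa1 had 193, 95.3 and 86.7 normalized counts in aged wild type and 60.6, 39.4 and 52.4 in young wild type, a log2 difference of 1.21 ± 0.39 (SE; limma adjusted p = 0.0537). Every aged library lay above every young one. Ndufa3, another small membrane-arm subunit, had 321, 176 and 219 normalized counts in aged and 137, 114 and 176 in young wild type, 0.72 ± 0.29 apart on the log2 scale (SE; limma adjusted p = 0.141). Ndufv3, an accessory subunit at the NADH-binding end, differed by 0.48 ± 0.20 (SE; limma adjusted p = 0.161). Ranges did not overlap for 6 members higher in aged wild type (13.3%, against 15.1% of all genes tested) and for 1 lower, Ndufb4 (2.22%, against 11.2%). The median log2 difference was 0.25 for the 26 members with a transcript under 1000 bases and 0.05 for the 19 longer ones, beside 0.11 and 0.02 over protein-coding genes. Spearman's rho with length was -0.40 over the members and 0.05 over protein-coding genes.

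Aged wild-type replicate 1 weighed on this comparison. It had the highest count of the 12 aging libraries for 19 of 45 members, and its member mean was 8.28 on the log2 scale, against 7.97 and 8.02 in the other aged wild-type libraries and 7.80 to 7.93 in young wild type. Its summed count of mitochondrially encoded subunits was the lowest of the 12 at 28238. Without it the median difference between aged and young wild type was 0.041, with 28 of 45 members above zero. Neutrophil and monocyte markers moved with age in the same libraries. The 12 neutrophil markers summed to 82016 to 149121 normalized counts in aged and 17454 to 26136 in young wild type, with 11 called higher. The 10 monocyte markers summed to 20254 to 36283 in aged and 2750 to 5523 in young wild type, with 10 called higher. Choroid plexus and ependymal markers summed to 27045 to 44837 in aged and 6038 to 14980 in young wild type, with 2 of 5 tested called higher, and 8 of 10 microglial markers were called lower in aged wild type. Of 16 immediate early and handling stress genes Ier2, Dusp1 and Klf2 were called higher in aged wild type. Their part in the member values was not tested.

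No member passed the threshold between libraries labelled Trem1-/- and wild type at either age. In young libraries labelled Trem1-/- against young wild type 24 of 45 members were above zero (median log2 difference 0.04, or -0.015 with total reads scaling, where that of all genes was -0.066), 0 passed by limma, where 2.58% of all genes tested did, 2 had an unadjusted p under 0.05, beside 11.8% of all genes tested, and edgeR and DESeq2 called 0. Without young Trem1-/- replicate 1 the median was -0.016. Ndufa6 had 610, 765 and 790 normalized counts in young libraries labelled Trem1-/- and 519, 454 and 554 in young wild type. The groups did not overlap, at 0.50 ± 0.18 on the log2 scale (SE; limma adjusted p = 0.176). Ndufa1 had 80.9, 116 and 124 in young libraries labelled Trem1-/-, all above the 39.4 to 60.6 of young wild type, at 1.06 ± 0.39 (SE; limma adjusted p = 0.197). Ndufb4 had 114, 278 and 203 in young libraries labelled Trem1-/- and 308, 306 and 276 in young wild type, at -0.67 ± 0.38 (SE; limma adjusted p = 0.543), with 1 library labelled Trem1-/- inside the wild-type range. Ranges did not overlap for 4 members higher in young libraries labelled Trem1-/-, namely Ndufa1, Ndufa6, Ndufaf6 and Ndufb9 (8.89%, against 11.3% of all genes tested), and for 0 lower (against 9.05%). The neutrophil markers summed to 38349 to 77046 and the monocyte markers to 16739 to 38090 normalized counts in these libraries, both above young wild type. Of them 4 of 12 neutrophil and 6 of 10 monocyte markers were called higher. The 8 border macrophage markers summed to 2198 to 4978, against 831 to 1356 in young wild type. Of these 8, 5 were above zero and 1 was called higher. The called gene was F13a1, which is also among the 6 monocyte markers called. Of the 10 microglial markers P2ry12 was called lower. Of the 16 stress genes Ier2, Hspa1a, Dusp1 and Klf2 were called higher in young libraries labelled Trem1-/-, and the part of these lists was not tested.

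In aged libraries labelled Trem1-/- against aged wild type 18 of 45 members were above zero, with a median log2 difference of -0.061 against -0.016 over all genes tested. By limma 0 members and 0.0% of all genes tested passed, 3 members had an unadjusted p under 0.05, beside 9.6% of all genes tested, and edgeR and DESeq2 called 0. Ndufa11 had 183, 465 and 429 normalized counts in aged libraries labelled Trem1-/- and 119, 176 and 227 in aged wild type. Replicates 2 and 3 stood above the highest wild-type value and replicate 1 inside the wild-type range, and the log2 difference was 0.98 ± 0.32 (SE; limma adjusted p = 0.369). Ndufab1 differed by 0.39 ± 0.19 (SE; limma adjusted p = 0.518). Ranges did not overlap for 0 members higher (against 5.91% of all genes tested) and for 4 lower, Ndufaf1 and Ndufb3 among them (8.89%, against 6.25%). Assembly factors had the lowest median of the role groups, -0.39, with 3 of 8 above zero, and the mitochondrially encoded subunits were above zero in 7 of 7 (median 0.37, with 0 called). Without aged wild-type replicate 1 the median of the 45 members was 0.045, and with total reads scaling it was 0.037, where that of all genes was 0.080.

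Comparing aged with young libraries labelled Trem1-/-, 25 of 45 members were above zero (median log2 difference 0.08), 0 passed by limma, where 1.71% of all genes tested did, and 3 had an unadjusted p under 0.05, beside 15.2% of all genes tested. Without aged Trem1-/- replicate 1 that median was -0.038. Choroid plexus and ependymal markers summed to 30961 to 40928 normalized counts in aged and 2418 to 14859 in young libraries labelled Trem1-/-, with Folr1 called higher. The 12 neutrophil markers summed to 68799 to 157696 in aged and 38349 to 77046 in young libraries labelled Trem1-/-, with Retnlg called higher. Fcrls, Csf1r and Olfml3 of the 10 microglial markers were called lower. The part of these markers was not tested. Ndufa11 again had the smallest p, with 184, 147 and 184 normalized counts in young libraries labelled Trem1-/- below 2 of the 3 aged ones and level with the third, at 0.95 ± 0.32 (SE; limma adjusted p = 0.129). Ndufv3 differed by 0.48 ± 0.20 (SE; limma adjusted p = 0.253). Ranges did not overlap for 5 members higher in aged libraries, Ndufa10, Ndufs5, Ndufs6, Ndufv2 and Ndufv3 (11.1%, against 11.3% of all genes tested), and for 1 lower, Ndufa6 (2.22%, against 9.87%). DESeq2 called 1 member, Ndufa11, and edgeR 0. Without aged Trem1-/- replicate 1, limma called Ndufa11 as well.

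Between aged libraries labelled Trem1-/- and young wild type, which differ in both age and label, 33 of 45 members were above zero (median log2 difference 0.10). At an unadjusted p under 0.05 there were 7 members, 4 of them higher, beside 19.7% of all genes tested. By limma 1 member passed, Ndufa1, higher in the aged libraries, where 6.67% of all genes tested passed and 4.65% were higher. It had 121, 137 and 141 normalized counts in aged libraries labelled Trem1-/- and 60.6, 39.4 and 52.4 in young wild type. It rose by a log2 difference of 1.39 ± 0.39 (SE; limma adjusted p = 0.0299), with no overlap. In the same comparison 11 of 12 neutrophil markers, 6 of 10 monocyte markers and the choroid plexus and ependymal markers Folr1 and Foxj1 were called higher, as were Ier2, Dusp1 and Klf2 of 16 stress genes, and 9 of 10 microglial markers were called lower. The part of these in the value of Ndufa1 was not tested. Ranges lay apart for 5 members higher (11.1%, against 12.9% of all genes tested) and for 3 lower, Ndufb3 among them (6.67%, against 10.2%). The adjusted p of Ndufa1 was 0.112 without young wild-type replicate 2 and 0.0634 without young wild-type replicate 3, and 0 members passed in either fit or without aged Trem1-/- replicate 2 or replicate 3. Without aged Trem1-/- replicate 1, the 2 members called were Ndufa11 and Ndufb4 in its place. The authors' deposited table compared the same groups as young wild type over aged Trem1-/-, as identified from its values. There 1 of 45 members had an adjusted p under 0.05 beside 7.32% of 20305 genes. In the authors' deposited table it was Ndufa1, with a log2 fold change of -1.39 (adjusted p = 0.00996), higher in aged Trem1-/-.

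The difference of the age effect between the label groups, tested as an interaction, was past the threshold for 0 members, where 2.54% of all genes tested passed. Of 45 members 12 were above zero, with a median of -0.11 against -0.018 over all genes tested. At an unadjusted p under 0.05 there were 2 members, beside 15.3% of all genes tested, while edgeR and DESeq2 called 0. With total reads scaling the median was 0.044 for members and 0.14 for all genes, so members lay below all genes under both scalings. The 2 were Ndufa11, at 1.14 ± 0.45 (SE; limma adjusted p = 0.208), and Ndufa6, at -0.56 ± 0.25 (SE; limma adjusted p = 0.276). The third smallest p was that of Ndufaf1, at -1.25 ± 0.68 (SE; limma adjusted p = 0.404), on counts of 93.4, 32.4 and 67.7 in aged Trem1-/-, 94.4, 111 and 116 in aged wild type, 99.6, 91.0 and 35.8 in young Trem1-/- and 53.2, 41.6 and 62.9 in young wild type.

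Members varied together only weakly within groups. The mean pairwise correlation of their deviations from the group means was 0.07 over the 12 aging libraries and 0.11 over the 9 libraries of the 5XFAD data, against 0.0008 and 0.0016 over all genes tested, as a description. The highest value by role was 0.20 for matrix-arm accessory subunits in the aging data and 0.19 for core subunits in the 5XFAD data. The 7 mitochondrially encoded subunits, which are cut from shared transcripts, had 0.65 and 0.47. The typical spread of a member within a group, as the median coefficient of variation, was 16.3% in the aging data and 20.98% in the 5XFAD data. Across members, the log2 differences of aged against young wild type and of 5XFAD against adult wild type, which share no library, had a Spearman's rho of 0.23 over 45 genes, and 25 members were above zero in both.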

How the data were processed

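Expression was measured by RNA sequencing in microglia of mouse brain. The 2 deposited tables, aging and 5XFAD, were normalized separately, so each test stayed within 1 table. Per the submitters' processing notes, tools and builds named are fastp, HISAT2 2.0.5, featureCounts 1.5.0-p3, DESeq2 1.20.0 and GRCm38; the annotation and strandedness are not given in the sources used here. Per the labels, a Qiagen RNeasy kit served for total RNA and libraries were made with a NEBNext Ultra RNA kit.

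The authors' deposited per-library columns held a signal, namely counts divided by a size factor. Dividing by the value of 1 read gave whole reads within 0.05 read for at least 99.9956% of values. Beside these, the authors deposited a log2 fold change, a score (the Wald statistic) and p-value with its adjusted p-value. A floor of 3 reads equals 2.06 to 4.51 normalized counts for aging and 2.26 to 4.36 for 5XFAD, for counting error only.

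Genes with a mean of at least 10 were tested with limma 3.58.1 (trend, robust; R 4.3.3) on log2(normalized count + 1), all groups of a table in 1 fit, with Benjamini-Hochberg adjustment over all genes tested and a threshold of 0.05. The test was checked on simulated data. DESeq2 1.42.0 and edgeR 4.0.16 on recovered reads, other pseudocounts, filters and scalings, a replicate block and each library left out were alternatives. GENCODE M21 (GRCm38) matched 53825 of 54532 symbols and gave positions and the length of the APPRIS principal transcript, one with a RefSeq match preferred.

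The members, gene lists and tests were chosen with earlier results of these data known. Named were members past the threshold (at most 8 a comparison), otherwise the 3 with the smallest p, and the 3 highest and 3 lowest per kilobase. Other members are named for ranges, depth or shared sequence, chosen after their values were seen. The single values of 1 member are not reported here.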

Additional observations from a re-analysis of the deposited data

Results flagged for a closer look

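Among Trem1 and the 45 members, only Trem1 had a difference in age effect that was itself past the threshold. The age effect in libraries labelled Trem1-/- minus that in wild type was -3.40 ± 0.64 on the log2 scale (SE; limma adjusted p = 0.00429). The log2 difference between aged and young libraries was 0.74 for those labelled Trem1-/- and 4.14 for wild type. No complex I member met this criterion, and groups of 3 libraries were too small for a test of outlying libraries.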

How the results depend on the processing

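No named member changed direction under any alternative run. Of 455 alternative values for 24 named results, 419 stayed on their side of the threshold, 23 lost it and 13 gained it. Only results called in the main test could lose it, so the 23 losses all fell on these. They were Ndufa1 between aged Trem1-/- and young wild type, and Ndufa1 and Ndufa13 between 5XFADXTREM1+/- and adult wild type. The other named results could only stay or gain it. Counts of called members moved with the test. Between aged and young wild type 1 member (Ndufa1) was called with a mean of at least 50, by edgeR and by DESeq2. Between aged Trem1-/- and young wild type 0 were called with no filter, by limma without trend and robust, and with only the groups compared. Between aged and young Trem1-/- 1 (Ndufa11) was called by DESeq2. Between 5XFAD and adult wild type 2 (Ndufa13, Ndufb11) were called with no filter and by DESeq2, and 1 (Ndufa13) with total reads scaling. Between 5XFADXTREM1+/- and adult wild type 0 were called with the length trend removed, by limma without trend and robust, and without replicate 1 of every group (the length trend and replicate 1 alternatives were chosen after seeing the data), and 1 (Ndufa13) by edgeR. The cause was not tested.

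Total reads scaling gave a median difference of 0.037 for aged Trem1-/- against aged wild type and 0.044 for the interaction, where the median of all genes became 0.080 and 0.14. Removing the length trend gave 0.092 for 5XFAD and 0.079 for 5XFADXTREM1+/- against adult wild type.

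Replicate numbers are shared across groups, but same-numbered libraries correlated little (median 0.01 in each table, from -0.14 to 0.10 for aging and -0.03 to 0.20 for 5XFAD). Between 5XFADXTREM1+/- and 5XFAD the same-numbered pairs had 0.20, 0.06 and 0.08, not all over 0.1, so the numbers were not taken to pair libraries. With a replicate block 1 member (Ndufa13) was called between 5XFAD and adult wild type, and no other count of called members moved.

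Leaving out each library in turn gave 0 to 1 called members between aged and young wild type, 0 to 0 for young and for aged Trem1-/- against wild type, 0 to 1 between aged and young Trem1-/- and for the interaction, 0 to 2 between aged Trem1-/- and young wild type, 0 to 0 for 5XFAD against adult wild type and for 5XFADXTREM1+/- against 5XFAD, and 0 to 3 for 5XFADXTREM1+/- against adult wild type. Median differences then ran from 0.041 to 0.24 between aged and young wild type, from -0.016 to 0.060 for young and -0.17 to 0.045 for aged Trem1-/- against wild type, from -0.038 to 0.10 between aged and young Trem1-/-, from 0.079 to 0.13 between aged Trem1-/- and young wild type, from -0.23 to -0.092 for the interaction, from 0.17 to 0.37 for 5XFAD against adult wild type, from -0.044 to 0.10 for 5XFADXTREM1+/- against 5XFAD, and from 0.29 to 0.44 for 5XFADXTREM1+/- against adult wild type.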
